A study of Mus musculus with 3 samples.

Results

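Rhox genes encode homeobox transcription factors of reproductive tissues and lie in a single cluster on the mouse X chromosome. Expression of the cluster is known from the testis, epididymis, ovary and placenta, and DNA methylation is known to keep much of it silent in somatic cells. The group was expanded by tandem duplication, so that the Rhox2, Rhox3 and Rhox4 genes each exist as a series of closely similar copies. Rhox5, formerly Pem, is the best known member and is driven by androgen in Sertoli cells, the somatic cells that enclose the germ cells of the testis. Rhox6 and Rhox9, formerly Psx1 and Psx2, were first described in placenta, and Rhox9 was also named Gpbox.

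The members were all array probes whose accession belongs to a gene with a symbol starting with Rhox in the NCBI RefSeq table of the mouse, kept where some genotype had the probe well above background on its 2 arrays. Of 41174 probes other than controls, 7 matched a Rhox gene, and all 7 were kept. Each gene had a single probe printed as a single spot, and no spot of a member was marked as an outlier. The 7 genes were Rhox2a, Rhox3a, Rhox4e, Rhox5, Rhox6, Rhox9 and Rhox11, out of 42 Rhox genes in the RefSeq table, of which 33 are protein coding. For the other 35, among them Rhox1, Rhox7a, Rhox8, Rhox10, Rhox12 and Rhox13, no probe was matched, and they were not analysed here. Of the 7 probes, 6 were well above background on all 6 arrays, and Rhox11 was kept only through the Cyp26b1 knockout.

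Total RNA came from gonads of male embryos at embryonic day 14.5 from a mouse line that the labels call MCH, and was measured on 1-colour arrays. The 6 arrays fall into 3 genotypes of 2: wild type (Cyp26b1+/+/Stra8+/+), Cyp26b1 knockout (Cyp26b1-/-/Stra8+/+) and double knockout (Cyp26b1-/-/Stra8-/-), so that both mutant groups lack Cyp26b1. The duplicates were biological, per the series design text. Whether gonads of several embryos were pooled is unknown, and the p-values reflect no more than how far these arrays spread. CYP26B1 degrades retinoic acid in the fetal testis, and STRA8 is the retinoic acid-induced factor that germ cells need to enter meiosis.

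The genotype of each array rests on its label. The Cyp26b1 probe gave a log2 difference of 0.12 ± 0.15 (SE, n = 2 arrays per genotype; limma adjusted p = 0.552) for Cyp26b1 knockout against wild type and of 0.08 ± 0.15 (adjusted p = 0.771) for double knockout against wild type. The Stra8 probe was higher than in wild type on the arrays labelled Cyp26b1 knockout by 4.04 ± 0.36 (adjusted p = 0.000237) and on the arrays labelled double knockout by 2.98 ± 0.36 (adjusted p = 0.00383). No source used here places the probes inside or outside the deletions, so they do not check the labels. Each genotype was on a slide of its own, so slide and genotype cannot be told apart. Wild type and double knockout arrays were scanned on 1 day and Cyp26b1 knockout arrays on another, so scan day cannot be told apart from genotype in comparisons with the Cyp26b1 knockout, while double knockout against wild type lies within 1 scan day. Of the 7 defining markers of fetal testis that were sought, 6 had a probe, and none of these was below background in every genotype. Their summed signal, in multiples of the 75th percentile of the array, was 82.8 to 86.2 in wild type, 77.9 to 80.5 in the Cyp26b1 knockout and 78.9 to 85.2 in the double knockout.

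The sequence in front of each gene is given because many copies are so alike and because the cluster is a known target of DNA methylation, which acts on CpG. RefSeq promoter windows of GRCm38.p6, from 250 bases before to 50 bases after the start, were at hand for 28 Rhox genes and for 5 of the 7 members, without Rhox6 and Rhox9. The windows of a gene that rose in both mutants (Rhox3a), a gene that rose in the Cyp26b1 knockout (Rhox2a), the gene that was lower there (Rhox4e) and the gene with no called difference (Rhox5) follow, 5′ to 3′, with CpG in capitals. They lie on the plus strand of the X chromosome at chrX:37249669-37249968, chrX:37244742-37245041, chrX:37557162-37557461 and chrX:37754358-37754657.
Rhox3a: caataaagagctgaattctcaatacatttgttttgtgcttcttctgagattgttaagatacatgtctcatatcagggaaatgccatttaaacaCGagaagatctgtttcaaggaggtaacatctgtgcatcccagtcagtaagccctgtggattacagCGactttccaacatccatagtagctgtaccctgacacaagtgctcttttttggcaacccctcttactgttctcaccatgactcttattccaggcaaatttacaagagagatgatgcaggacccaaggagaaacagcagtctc
Rhox2a: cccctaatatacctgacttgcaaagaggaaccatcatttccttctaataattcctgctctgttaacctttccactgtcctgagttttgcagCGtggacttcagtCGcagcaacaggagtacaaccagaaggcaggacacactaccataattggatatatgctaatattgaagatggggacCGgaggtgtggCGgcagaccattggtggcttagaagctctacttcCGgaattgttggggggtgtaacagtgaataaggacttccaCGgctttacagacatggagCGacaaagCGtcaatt
Rhox4e: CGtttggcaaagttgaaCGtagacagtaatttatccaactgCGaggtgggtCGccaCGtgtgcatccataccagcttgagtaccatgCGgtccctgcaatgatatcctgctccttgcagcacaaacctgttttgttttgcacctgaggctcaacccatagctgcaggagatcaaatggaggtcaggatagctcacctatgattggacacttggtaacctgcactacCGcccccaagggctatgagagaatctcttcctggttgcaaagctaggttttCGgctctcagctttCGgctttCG
Rhox5: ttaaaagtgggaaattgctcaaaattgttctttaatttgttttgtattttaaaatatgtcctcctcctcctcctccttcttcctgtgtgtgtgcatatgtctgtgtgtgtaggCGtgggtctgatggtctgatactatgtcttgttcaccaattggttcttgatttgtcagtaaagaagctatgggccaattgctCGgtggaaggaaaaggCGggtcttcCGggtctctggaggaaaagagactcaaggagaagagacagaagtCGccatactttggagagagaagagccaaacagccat
Rhox3a had 2 CpG in its window, Rhox5 had 5, Rhox11 had 7, Rhox2a had 8 and Rhox4e had 10, beside a median of 7 and quartiles of 3 and 20 over 32851 promoters. The Rhox2a window was 94.3% to 100% identical to those of 6 other Rhox2 genes, and the Rhox4e window was 96.5% to 100% identical to those of 6 other Rhox4 genes. The Rhox3a window was identical to that of Rhox3h. With those of Rhox3a2, Rhox3c, Rhox3e, Rhox3f and Rhox3g it had only 3 to 28 aligned bases, too few for an identity. RefSeq lists 9 genes named Rhox2, 9 named Rhox3 and 8 named Rhox4, pseudogenes included, so the Rhox2a, Rhox3a and Rhox4e signals may each come from several copies and are uncertain as values of a single gene. For Rhox5, Rhox6 and Rhox9 the table holds no second gene of the same number, and for Rhox11 it holds only pseudogenes and a non-coding RNA. Probe sequences were not at hand, so matches of the 7 probes to Rhox genes of another number were not checked either.

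Short motifs were searched on both strands in the 5 windows and in those of the other Rhox genes, and a match is only a description. AGGTCA, the half-site of retinoid receptors, stands in 16.3% of all promoters and was found among the 5 windows only in Rhox4e, at -72 from the start. It was also in the windows of Rhox3a2, Rhox3c, Rhox3e, Rhox3f and Rhox3g, whose RNA the Rhox3a signal may include, though not in that of Rhox3h. The windows of the other Rhox4 copies held it too, and those of the Rhox2 copies did not. Its direct repeat with 5 bases between the half-sites was in 3 promoters of the whole table and in no Rhox window. CACGTG, an E-box, stands in 7.15% of promoters and was found among the 5 windows only in Rhox4e, at -196. AGAACA, an androgen receptor half-site, stands in 19.0% of promoters and was found among the 5 windows in Rhox3a at -26 and in Rhox5 at -225.

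In gonads labelled Cyp26b1 knockout, 4 of the 6 Rhox genes that were above background on all arrays were higher than in wild type (Rhox2a, Rhox3a, Rhox6 and Rhox9), Rhox4e was lower and Rhox5 did not pass the test. Rhox11 was also called higher, but it entered the test only because it was above background in the Cyp26b1 knockout, so it is left out of the counts and medians here and is given by itself. Over all 21552 features tested, 21.3% were called higher and 29.9% lower in this comparison, so that 51.2% of features were called in one direction or the other. The fitted log2 differences of the 6 genes had a median of 2.03, beside -0.09 over all features. Tests were limma in 1 fit over the 6 arrays with Benjamini-Hochberg adjustment over all features at 0.05, and every adjusted p of a gene below is from this fit unless another setting is named. Levels are log2 signals relative to the 75th percentile of the array, and differences are on the log2 scale with the standard error of the fit. RNA of the whole gonad was measured, so more cells of a type and more RNA per cell cannot be told apart.

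Rhox6 was measured at -1.04 and -1.20 on the wild type arrays, at 1.96 and 1.62 on the Cyp26b1 knockout arrays and at -0.72 and -0.39 on the double knockout arrays. The knockout arrays stood well apart from the other 4, and the double knockout arrays lay just above wild type. Rhox6 was 7.51-fold higher in the Cyp26b1 knockout than in wild type (2.91 ± 0.16, adjusted p = 7.38e-05) and 5.07-fold lower in the double knockout than in the Cyp26b1 knockout (-2.34 ± 0.16, adjusted p = 0.000369). The difference of 0.57 between double knockout and wild type, with a 95% interval of 0.20 to 0.93, did not pass (adjusted p = 0.0576).

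Rhox9, which follows Rhox6 along the X chromosome among the genes with a probe, gave -0.44 and -0.59 in wild type, 2.04 and 1.85 in the Cyp26b1 knockout and 0.11 and 0.41 in the double knockout. The 3 genotypes did not overlap, with the double knockout between the others. Rhox9 was 5.50-fold higher in the Cyp26b1 knockout than in wild type (2.46 ± 0.13, adjusted p = 6.61e-05). In the double knockout it was 3.22-fold lower than in the Cyp26b1 knockout (-1.69 ± 0.13, adjusted p = 0.000437) and 1.71-fold higher than in wild type (0.77 ± 0.13, adjusted p = 0.0111). The call against wild type did not hold without wild type array 1 (adjusted p = 0.0547) and without wild type array 2 (adjusted p = 0.0909).

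Rhox3a, of the duplicated Rhox3 group, gave -2.75 and -3.09 in wild type, 0.38 and 0.52 in the Cyp26b1 knockout and -1.18 and -0.60 in the double knockout. Its arrays again fell into 3 separate pairs in the same order as those of Rhox9. Rhox3a was 10.3-fold higher in the Cyp26b1 knockout than in wild type (3.37 ± 0.21, adjusted p = 9.28e-05) and, in the double knockout, 4.08-fold above wild type (2.03 ± 0.21, adjusted p = 0.00229). Between the mutants it was 2.53-fold lower in the double knockout (-1.34 ± 0.21, adjusted p = 0.00247). With normexp background correction over all spots the first difference was 2.19 and the second 1.04, both still called.

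Rhox2a, of the duplicated Rhox2 group, gave 0.28 and 0.26 in wild type, 2.41 and 1.35 in the Cyp26b1 knockout and 0.79 and 1.23 in the double knockout. The knockout arrays differed from each other by 1.06, the widest gap within a genotype among the members. Rhox2a was 3.05-fold higher in the Cyp26b1 knockout than in wild type (1.61 ± 0.31, adjusted p = 0.0043). Neither the difference of 0.74 between double knockout and wild type (95% interval 0.018 to 1.46, adjusted p = 0.16) nor that of -0.87 between the mutants (95% interval -1.59 to -0.15, adjusted p = 0.0553) passed. Without Cyp26b1 knockout array 2 the difference between the mutants was -1.40 (adjusted p = 0.00489), and without array 1 it was -0.34.

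Rhox11 was dim. Its processed signal, in the scanner's own units, was 12.4 and 8.22 in wild type, 25.5 and 33.1 in the Cyp26b1 knockout and 6.54 and 6.84 in the double knockout. Only the Cyp26b1 knockout arrays were well above background, so Rhox11 was tested because it was high there, and the direction of its calls is favoured by that filter. Rhox11 was at least 1.70-fold higher in the Cyp26b1 knockout than in wild type (measured means -5.15 and -7.09, adjusted p = 0.005) and at least 1.40-fold lower in the double knockout (measured mean -7.60, adjusted p = 0.00269). For these bounds the dimmer genotype was placed at the dimmest level its arrays could measure above background. Neither call was kept when the background was corrected by normexp. The adjusted p for Cyp26b1 knockout against wild type was then 0.762 over all spots, with the direction reversed, and 0.0622 without marked spots.

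Rhox4e, of the duplicated Rhox4 group whose copy Rhox4b was first described as Ehox, ran the other way. It gave 0.40 and 0.55 in wild type, -0.11 and -0.04 in the Cyp26b1 knockout and 1.11 and 0.73 in the double knockout, so the Cyp26b1 knockout was the lowest pair and the double knockout the highest. Rhox4e was 1.46-fold lower in the Cyp26b1 knockout than in wild type (-0.55 ± 0.14, adjusted p = 0.0125) and 1.99-fold higher in the double knockout than in the Cyp26b1 knockout (0.99 ± 0.14, adjusted p = 0.00165). Double knockout against wild type gave 0.45 (95% interval 0.13 to 0.76, adjusted p = 0.0756). The lower value in the Cyp26b1 knockout did not pass without wild type array 2 (adjusted p = 0.0811), without Cyp26b1 knockout array 1 (adjusted p = 0.0571), under the authors' scaling (adjusted p = 0.0943) or with normexp over all spots (adjusted p = 0.141).

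Rhox5, the androgen-driven Sertoli cell gene, gave 4.70 and 5.03 in wild type, 5.49 and 4.70 in the Cyp26b1 knockout and 4.93 and 5.39 in the double knockout. The 3 genotypes overlapped, and no comparison passed. The differences were 0.22 for Cyp26b1 knockout against wild type (95% interval -0.40 to 0.85, adjusted p = 0.509), 0.29 for double knockout against wild type (95% interval -0.33 to 0.91, adjusted p = 0.506) and 0.07 between the mutants (95% interval -0.56 to 0.69, adjusted p = 0.858). All 3 intervals lie within 2-fold in either direction. No spot of Rhox5 was saturated.

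**Figure D1:**
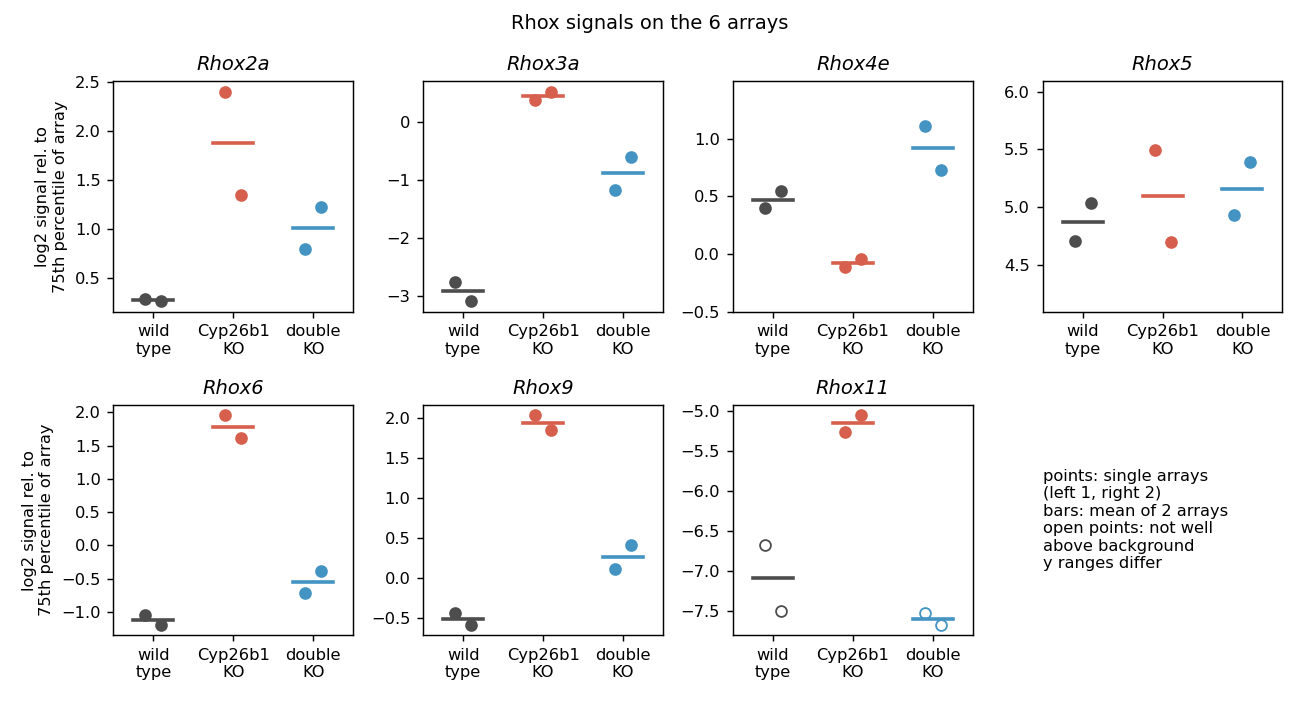
Level of each Rhox gene on the 6 arrays (y axis, log2 of the signal over the array's 75th percentile), with points for single arrays, bars for the mean of 2 arrays, open points for spots not well above background, and a y range of its own for each gene. Rhox3a, Rhox6 and Rhox9 have their highest pair in the Cyp26b1 knockout with the double knockout between it and wild type, Rhox4e has its lowest pair there, and the Rhox5 pairs overlap around 4.70 to 5.49.

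In the double knockout against wild type, 2 of the 6 genes above background on all arrays were called higher (Rhox3a and Rhox9) and none lower by limma, beside 5.43% of all features called higher and 6.56% lower (12.0% either way). Their fitted differences had a median of 0.65, beside -0.016 over all features. None of the 6 had a negative fitted difference, so none was lower at an unadjusted p under 0.05 in the limma fit either. The count of 2 was 1 without wild type array 1 or without wild type array 2, and 4 without Cyp26b1 knockout array 1 or without Cyp26b1 knockout array 2. Rhox2a was called without either Cyp26b1 knockout array, Rhox6 without either of these or double knockout array 1, and Rhox4e without double knockout array 2. The count was 4 with scaling to the median, 4 with normexp without marked spots and 1 under the authors' scaling. Over all features, 1170 were called higher in the main fit. This number was 2458 with scaling to the median, 1291 with normexp without marked spots and 359 under the authors' scaling. Fewer features were called higher without either wild type array, and more without either Cyp26b1 knockout array.

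Between the mutants, 3 of the same 6 were called lower in the double knockout (Rhox3a, Rhox6 and Rhox9) and Rhox4e was called higher, beside 17.6% of all features called lower and 25.5% higher (43.1% either way). Rhox2a and Rhox5 did not pass. Their fitted differences had a median of -1.10, beside 0.09 over all features. The 3 comparisons share arrays: both mutants were set against the same wild type pair, and the comparison between mutants uses both mutant pairs again.

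**Figure D2:**
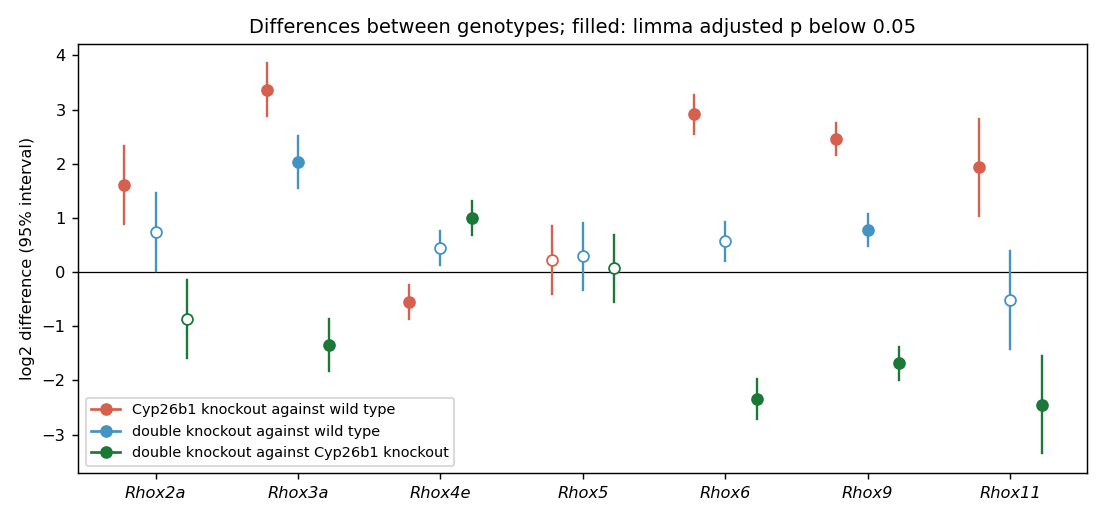
Fitted log2 difference of each Rhox gene (y axis) in the 3 comparisons, with 95% intervals of the limma fit, filled where the adjusted p was below 0.05. Rhox3a reached 3.37, Rhox6 2.91 and Rhox9 2.46 in the Cyp26b1 knockout against wild type, the points of double knockout against wild type lie between 0.45 and 0.77 for Rhox2a, Rhox4e, Rhox6 and Rhox9, and the fitted values of Rhox11 are not bounds, since only the Cyp26b1 knockout arrays were above background.

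The arrays of the genotypes compared did not overlap for 5 of the 6 genes above background on all arrays in each of the 3 comparisons. Among all features the share without overlap was 78.0% for Cyp26b1 knockout against wild type, 62.2% for double knockout against wild type and 71.8% between the mutants, so most features showed no overlap either. The gap between the arrays of a genotype had a median over the members of 0.15 in wild type, 0.20 in the Cyp26b1 knockout and 0.38 in the double knockout.

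The share of called features that were higher depended on the scaling between arrays. It was 41.7% for Cyp26b1 knockout against wild type, 45.3% for double knockout against wild type and 59.2% between the mutants. Under the authors' scaling the shares were 52.7%, 17.7% and 17.7%, with medians over all features of 0.013, -0.22 and -0.21. Scaling to the median gave 43.2%, 71.0% and 70.7%, with medians of -0.072, 0.12 and 0.21. The rises of Rhox2a, Rhox3a, Rhox6 and Rhox9 in the Cyp26b1 knockout were called under each of these scalings.

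The authors' deposited table of 1 linear ratio per genotype, whose reference is unknown, gives the genotypes in the order of the levels above for the members other than Rhox5. Over 18971 probes its differences between genotypes correlated with those of the unscaled scanner signals at r = 0.999993 to 0.999998. It thus rests on the same arrays, and the shared order is no independent check. For Rhox6 the authors' deposited table gives 0.768 for wild type, 6.20 for the Cyp26b1 knockout and 0.990 for the double knockout. For Rhox9 the authors' deposited table gives 0.666, 3.94 and 0.992, and for Rhox3a it gives 0.274, 3.05 and 0.974. For Rhox4e the authors' deposited table gives 1.01, 0.739 and 1.19, and for Rhox5 it gives 0.968, 1.21 and 1.03. The medians of its columns were 0.99979, 1.12 and 0.959.

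Across the 6 arrays, Rhox6 and Rhox9 ran closest together, with a Pearson r of 0.992, and Rhox3a followed Rhox9 at 0.943. Rhox4e ran against Rhox6 at -0.786, and Rhox5 had an r of 0.268 with Rhox6. These coefficients are descriptions over 6 arrays that share genotype and scan, with no test. Whether a probe of 1 of these genes also detects RNA of another was not checked. By the same measure, among 2437 named genes whose genotype means spanned at least 1 on the log2 scale, those most like Rhox6 were Snx29 (r = 0.999), Osbpl8 (0.999), Heatr3 (0.998), Xlr4b (0.998) and Ccdc115 (0.998). Xlr4b, a gene of the X-linked lymphocyte-regulated family, had mean levels of 3.66 in wild type, 5.06 in the Cyp26b1 knockout and 3.98 in the double knockout. Snx29 was well above background on only 2 arrays. Those most like Rhox5 were Csta2 (r = 0.865), Fam25c (0.840), Sox2 (0.824), Cfd (0.804) and Zscan5b (0.796), and Csta2, Cfd and Zscan5b were not well above background on every array.

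The flanks of the cluster were set beside it by a positional rule, the 10 nearest tested genes on each side in RefSeq order. In the Cyp26b1 knockout against wild type, 4 of these 20 neighbours were called higher and 10 lower, and their differences ran from -1.83 (Upf3b, a factor of nonsense-mediated decay) to 0.67 (Septin6, a cytoskeletal GTPase). Rhox2a, Rhox3a, Rhox6 and Rhox9, from 1.61 to 3.37, all lay above that range. Rhox4e at -0.55 and Rhox5 at 0.22 lay within it. Tested genes of other kinds inside the cluster's bounds were Zbtb33, which encodes the methyl-CpG binding factor Kaiso, and Tmem255a. Both come after Rhox11, the last Rhox gene with a probe, so neither lies among the measured Rhox genes. In this comparison Zbtb33 gave -0.27 (adjusted p = 0.068) and Tmem255a -0.02 (adjusted p = 0.876). Between the mutants, both were called higher, at 0.59 (adjusted p = 0.00476) and 0.84 (adjusted p = 0.00173). For double knockout against wild type, Zbtb33 gave 0.32 (adjusted p = 0.0989) and Tmem255a was called, at 0.81 (adjusted p = 0.00683). Between the mutants, 13 neighbours were called higher and 7 were not called, with a range of -0.25 to 1.32. Over all features 25.5% were called higher there. Rhox3a, Rhox6 and Rhox9 were called lower. In the double knockout against wild type, 3 neighbours were called higher and 17 were not called, with a range of -0.50 to 1.18. Rhox2a, Rhox4e, Rhox5, Rhox6 and Rhox9, from 0.29 to 0.77, lay within that range, and Rhox3a at 2.03 lay above it. Among the other 470 X-linked genes tested, 25.1% were called higher and 34.3% lower in the Cyp26b1 knockout against wild type. These shares were 36.6% and 16.4% between the mutants, and 10.2% and 4.26% for double knockout against wild type.

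**Figure D3:**
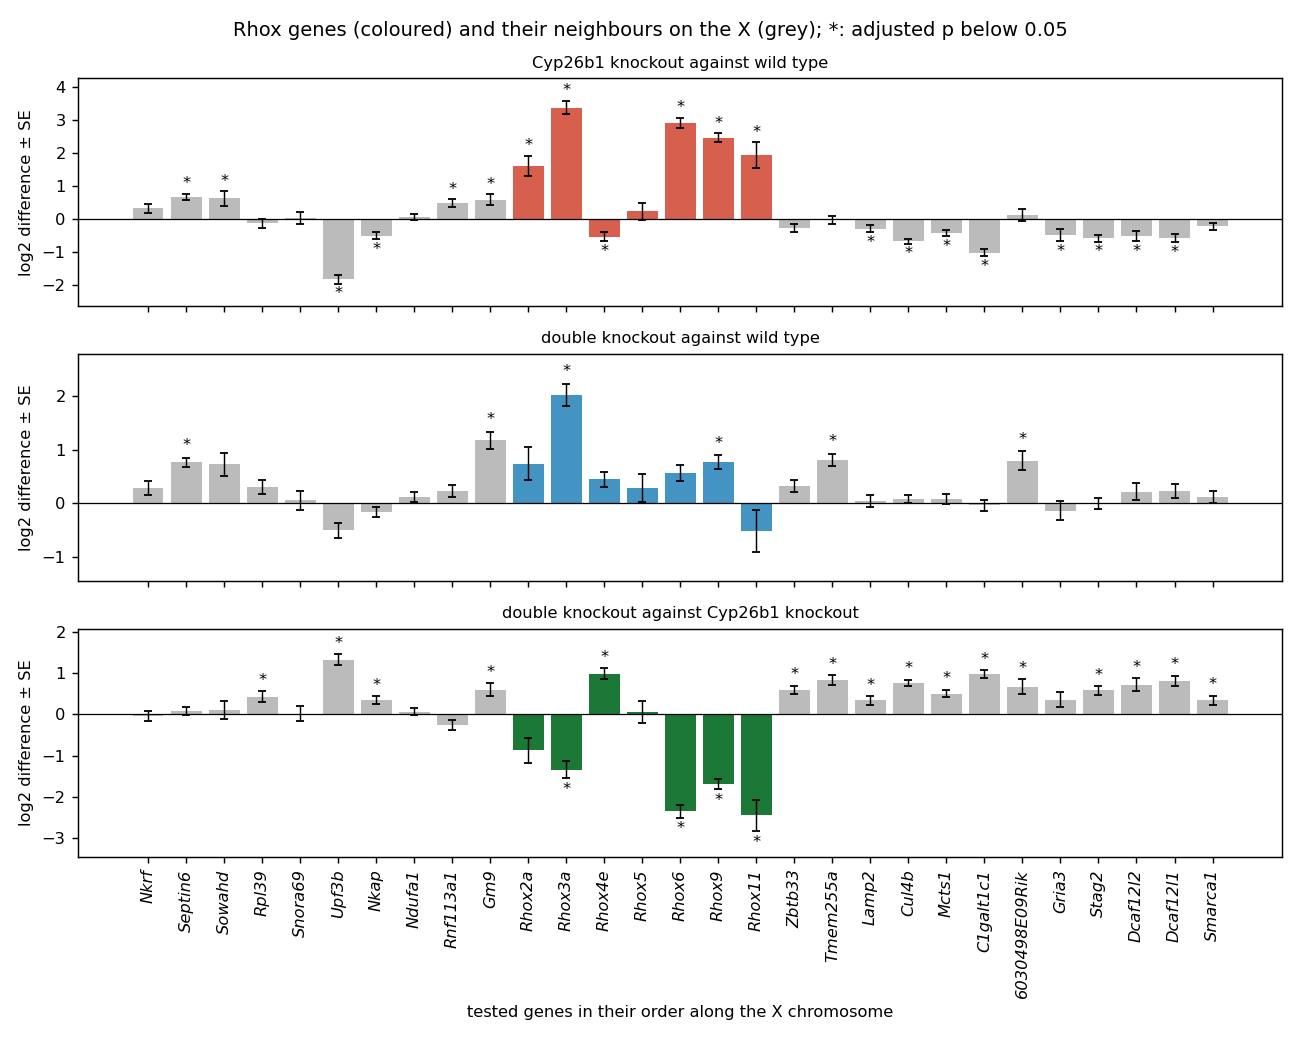
Fitted log2 difference with standard error (y axis) of the tested genes in their order along the X chromosome, Rhox genes coloured and other genes grey, with a star where the adjusted p was below 0.05, in 3 panels for the 3 comparisons. In the Cyp26b1 knockout against wild type, the bars of Rhox2a, Rhox3a, Rhox6, Rhox9 and Rhox11 stand above all grey bars, of which the tallest is Septin6 at 0.67, and the Rhox11 bar is a fitted value where only a bound was measured.

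Gene lists around the Rhox genes were counted in the same fit, where 21.3% of all features rose and 29.9% fell in the Cyp26b1 knockout against wild type. Of 17 tested homeobox relatives (genes of germ line, placenta and X chromosome), 5 rose and 5 fell in the Cyp26b1 knockout against wild type, with a median difference of 0.21 beside -0.09 over all features. Alx4 rose by 1.49 ± 0.18 (adjusted p = 0.000615) and Prrx2 fell by 0.67 on the log2 scale (adjusted p = 0.000593). Of 18 other X-linked genes of germ cells, 8 were higher and 6 lower, with a median of 0.38. Taf7l, a germ cell relative of a general transcription factor subunit, rose by 1.84 ± 0.13 (adjusted p = 0.000129), Fmr1nb by 2.29 ± 0.17 (adjusted p = 0.000152) and Magea5 by 2.14 ± 0.18 (adjusted p = 0.000219).

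Of 13 DNA methylation enzymes and cofactors, 6 rose and 2 fell in the Cyp26b1 knockout, with a median of 0.13. Over all features, 21.3% rose and 29.9% fell. Dnmt3l, the germ cell cofactor of de novo methylation, gave a log2 difference of -7.03 ± 0.38 for Cyp26b1 knockout against wild type (adjusted p = 7.51e-05) and of -5.25 for double knockout against wild type (adjusted p = 0.000687). Setdb1, a histone methyltransferase, rose by 1.42 ± 0.11 (adjusted p = 0.000173) and Dnmt1, the maintenance methyltransferase, by 0.99 ± 0.08 (adjusted p = 0.000211). Of 21 germ line genes that promoter methylation silences in the soma, 11, Stra8 itself among them, were higher and 6 lower, with a median of 0.41. Tuba3a rose by 1.29 ± 0.09 (adjusted p = 0.000129) and Brdt, a testis bromodomain gene, fell by 2.88 ± 0.22 on the log2 scale (adjusted p = 0.000152). That list shares Taf7l with the X-linked list and Dazl, Ddx4, Mael, Tex101 and Mov10l1 with the germ cell list.

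Markers of the cells that could carry Rhox RNA moved in both directions. So did features in general, with 21.3% of all features called higher and 29.9% lower in the Cyp26b1 knockout against wild type. Of 15 germ cell markers, 5 rose and 7 fell in the Cyp26b1 knockout, with a median of -0.46, and their summed signal was 141 to 142 times the 75th percentile in wild type, 118 to 132 in the Cyp26b1 knockout and 119 to 132 in the double knockout. Sohlh2, an early oocyte and spermatogonial factor, rose by 3.97 ± 0.24 (adjusted p = 9.28e-05), while Dnd1, a germ cell survival factor, fell by 2.01 ± 0.13 on the log2 scale (adjusted p = 0.000106). Of 24 Sertoli cell markers, 6 were higher and 9 lower, with a median of 0.06 and summed signals of 271 in wild type, 265 in the Cyp26b1 knockout and 240 to 285 in the double knockout. Dmrt1, of Sertoli and germ cells, rose by 2.86 ± 0.20 (adjusted p = 0.00012) and Hsd17b1 fell by 2.85 ± 0.22 on the log2 scale (adjusted p = 0.00016). No marker of either list was below background in every genotype, and Hsd17b3 and Nr5a1 stand in both the Sertoli and the Leydig cell list. Of 13 genes of Leydig cells and androgen response, 10 were lower and 3 were not called, though 1 was called higher under 8 of 17 alternatives, among them without double knockout array 1 and without double knockout array 2, with a median of -0.71. Their summed signal was 191 to 215 in wild type, 112 to 138 in the Cyp26b1 knockout and 158 to 180 in the double knockout. Hsd17b7 fell by 1.86 ± 0.09 on the log2 scale (adjusted p = 5.57e-05), Fdx1 by 0.99 (adjusted p = 0.000258) and Star, which brings cholesterol into mitochondria, by 1.57 ± 0.15 (adjusted p = 0.000286). Single arrays moved 4 of these counts for Cyp26b1 knockout against wild type by over 1.5 times. Besides the Leydig cell and androgen gene just named, the 10 lower ones of that list were 6 without wild type array 1, the 5 lower homeobox relatives were 2 without wild type array 2, and the 6 lower X-linked germ cell genes were 3 without wild type array 2 or without Cyp26b1 knockout array 1. The part of these shifts in the Rhox signals was not tested.

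In the double knockout against wild type, where 12.0% of all features were called beside 51.2% in the Cyp26b1 knockout, 3 homeobox relatives were higher and 1 lower, 5 X-linked germ cell genes higher and 1 lower, 2 DNA methylation genes higher and 2 lower, and 8 methylation-silenced germ line genes, Stra8 itself among them, higher and 2 lower. Of the germ cell markers 4 were higher and 3 lower, of the Sertoli cell markers 4 higher and 7 lower, and of the Leydig cell and androgen genes 4 lower. Medians of these 7 lists ran from -0.30 for the Leydig cell and androgen genes to 0.24 for the methylation-silenced genes. Fewer of all features were called in this comparison when any wild type or double knockout array was left out, so a loss of calls there is not particular to these lists. Leaving out wild type array 1, wild type array 2, double knockout array 1 or double knockout array 2 lowered counts in all 7 lists by over 1.5 times. The lowest values were 3 for the 8 higher and 0 for the 2 lower methylation-silenced genes, 2 for the 7 lower Sertoli cell markers, 0 for the 3 lower germ cell markers, 1 for the 4 lower Leydig cell and androgen genes, 2 for the 5 higher and 0 for the 1 lower X-linked genes, 1 for the 3 higher and 0 for the 1 lower homeobox relatives, and 1 for each 2 of the DNA methylation genes. Between the mutants, the Leydig cell and androgen genes had 6 members higher and 2 lower in the double knockout, and the germ cell markers also 6 higher and 2 lower. Sertoli cell markers had 7 higher and 5 lower, and methylation-silenced germ line genes also 7 and 5. The counts were 5 and 5 for X-linked germ cell genes, 3 and 4 for DNA methylation genes and 2 and 2 for homeobox relatives. Over all features, 25.5% were called higher and 17.6% lower there. Over the alternatives other than left-out arrays, the higher count ranged from 2 to 8 for the Leydig cell and androgen genes. It ranged from 3 to 7 for the germ cell markers and was as low as 1 in each of the other lists. The 2 lower Leydig cell and androgen genes were 1 without double knockout array 2 or without Cyp26b1 knockout array 2.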

How the data were processed

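Per the file headers, the deposited scanner files hold spot intensities read with Agilent Feature Extraction 9.5.3.1 (9.5 per the submitters' processing notes), background-subtracted and detrended in the processed signal and not scaled between arrays. The authors also deposited a table with 1 linear ratio per genotype, whose centring and scaling are unknown. Here each array's log2 processed signals were reduced by their 75th percentile. Control spots and spots marked as outliers were left out, and 25 probes without a usable spot were dropped. Accessions matched 1 RefSeq symbol (GRCm38.p6) for 23374 of 41174 probes and none for 17800. The arrays' annotation uses mm8, so no gene coordinates are given beyond RefSeq's promoter windows. A gene was represented by its brightest probe. A feature entered the tests if some genotype had it well above background on its 2 arrays, which left 21552. The test was two-sided, by limma 3.58.1 under R 4.3.3 (lmFit, eBayes with trend; 3 residual and 4.34 prior degrees of freedom). The procedure was tested on simulated data. Precision is limited by 2 arrays per genotype. The members and lists were chosen with earlier results of these data known. Genes named from a list were up to 3 with the smallest adjusted p in Cyp26b1 knockout against wild type, and the 5 most like Rhox6 or Rhox5 by Pearson r. A neighbour or control gene was named by position or role. Alternatives covered scaling, background, filters, probes, moderation, arrays in the fit and left-out arrays, 17 per comparison.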

Additional observations from a re-analysis of the deposited data

How the results depend on the processing

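Of the log2 differences of Rhox genes under 17 alternatives, 111 kept direction and side of the threshold for Cyp26b1 knockout against wild type (5 lost the call, 2 reversed), 101 for double knockout against wild type (12 gained a call, 3 lost it, 1 reversed) and 106 between the mutants (6 gained, 1 lost, 5 reversed). The calls of Rhox2a, Rhox3a, Rhox6 and Rhox9 for Cyp26b1 knockout against wild type, and of Rhox3a, Rhox4e, Rhox6 and Rhox9 between the mutants, held in all 17. Counts here are over all 7 genes, Rhox11 included, which entered the test only because it was above background in the Cyp26b1 knockout. The number of all features called changed with the setting as well. The lower count of 1 (Rhox4e) for Cyp26b1 knockout against wild type was 0 under the authors' scaling and 0 with normexp over all spots, and ranged from 0 to 1 over single left-out arrays, the 0 without wild type array 2 or Cyp26b1 knockout array 1. The higher count of 2 for double knockout against wild type was 4 with median scaling, 1 under the authors' scaling, 4 with normexp without marked spots, and 1 to 4 over left-out arrays. Reversed differences were those of Rhox5 for Cyp26b1 knockout against wild type (-0.17 without Cyp26b1 knockout array 1, within -0.17 to 0.62 over left-out arrays) and between the mutants (-0.096 with quantile normalization, -0.24 under the authors' scaling, -0.16 without double knockout array 2, and from -0.33 without Cyp26b1 knockout array 2 to 0.46 without its array 1). Those of Rhox11 were -0.83 (Cyp26b1 knockout against wild type) and 0.073 (between the mutants) with normexp over all spots, and 0.16 (double knockout against wild type) with normexp without marked spots. The cause was not tested. List counts moved by over 1.5 times in 21, 61 and 42 of 238 recounts for the 3 comparisons in the order above. Array numbers come from file names and pair nothing known. With them as a replicate block the Rhox counts were 5 higher and 1 lower, 2 and 0, and 1 and 4, with Rhox11 among the 5 and the 4. The shares of all features called with this block were 54.3%, 14.2% and 46.4%. Differences between array 1 and array 2 correlated across genotypes at 0.11 to 0.20. The mean-signal column was not at hand, so normexp used the median signal, a choice made after seeing the files. Slide as a block could not be run, since each slide holds 1 genotype. Dimness limits Rhox11 to bounds.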
